A study of Homo sapiens with 2 samples.

Results

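Binding of the retinoblastoma protein Rb was examined at the promoters of 10 genes that drive and police mitosis: AURKA, AURKB, PLK1, BUB1, BUB1B, MAD2L1, TTK, KNTC1, NDC80 and BIRC5. A gene was counted as having an Rb peak in a library when the authors' peak list held a summit, the base of highest coverage in a peak, within 3 kb of its start site on the genome build hg19. By that rule the 10 genes took 10 of the 21994 peaks listed for LNCaP and 3 of the 9423 peaks listed for VCaP. The genes were chosen by function, and with earlier results of these data known.

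VCaP and LNCaP are human prostate cancer lines, and the series holds 1 library of chromatin immunoprecipitation and sequencing (ChIP-seq) from each. Before fixation the cultures were starved of steroids for 3 days (5% serum stripped with charcoal and dextran). They were then exposed for 4 h to dihydrotestosterone (DHT), an androgen, at 10 nM. Cells were at passage 10 to 15, and chromatin was precipitated with 1 mouse monoclonal antibody against Rb. Cells without DHT and input chromatin were not analysed here, and without replicates no test between the lines was possible. A cell line label cannot be checked against marker genes in these files, which hold no expression values. The VCaP library had 8691938 tags after filtering and the LNCaP library 3671482.

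Rb is a pocket protein that holds back the cell cycle, largely by binding E2F transcription factors at the promoters of genes for DNA synthesis. Genes that act later, in mitosis, commonly carry a short promoter element called the cell cycle genes homology region (CHR). The CHR is bound by the MuvB complex, which represses with the Rb relatives p107 and p130 in resting cells and activates with B-MYB and FOXM1 in dividing cells. The spindle checkpoint, to which several of the 10 genes belong, delays the separation of chromosomes until every kinetochore is attached to the spindle.

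CHR words were found in 5 of the 6 members with a promoter in the RefSeq table, where 19.5% of all genes hold one. The table gives 250 bases before and 50 bases from each gene's start, and it matched PLK1, BUB1, BUB1B, MAD2L1, NDC80 and AURKB. All 6 belong to the 7 genes that had a peak in the LNCaP list and none in the VCaP list. AURKA, TTK and KNTC1, which had a peak in both lists, and BIRC5 had no promoter there and were not searched. Words could therefore not be compared between genes with and without a VCaP peak. The sequences below run from 100 bases before the start through the first 30 bases of the gene, 5′ to 3′. They are shown because most of them share a CHR word, which the AURKB stretch lacks. The starts in the RefSeq table were not matched to the hg19 start sites used for the peaks. Whether the AURKB stretch is the promoter at its Rb peak is therefore not known, and its lack of a word describes that stretch only. Capitals mark the CHR words TTTGAA and TTCGAA and the CCAAT box, each on either strand, so that ATTGG is a CCAAT box and TTCAAA a CHR word on the opposite strand.
PLK1, GRCh38.p14, chr16:23678789-23678918, plus strand: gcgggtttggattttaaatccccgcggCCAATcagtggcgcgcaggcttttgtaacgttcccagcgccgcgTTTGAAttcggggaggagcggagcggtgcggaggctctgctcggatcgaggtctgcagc
BUB1, GRCh38.p14, chr2:110678034-110678163, minus strand: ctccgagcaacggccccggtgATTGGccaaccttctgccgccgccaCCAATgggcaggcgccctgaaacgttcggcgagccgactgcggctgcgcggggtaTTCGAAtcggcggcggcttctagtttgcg
BUB1B, GRCh38.p14, chr15:40160969-40161098, plus strand: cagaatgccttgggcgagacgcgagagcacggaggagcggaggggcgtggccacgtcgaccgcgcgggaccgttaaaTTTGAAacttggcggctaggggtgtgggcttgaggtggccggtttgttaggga
MAD2L1, GRCh38.p14, chr4:120066819-120066948, minus strand: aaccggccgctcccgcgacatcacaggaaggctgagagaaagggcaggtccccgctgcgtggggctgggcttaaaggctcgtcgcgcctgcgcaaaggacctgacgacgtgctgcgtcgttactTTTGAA
NDC80, GRCh38.p14, chr18:2571457-2571586, plus strand: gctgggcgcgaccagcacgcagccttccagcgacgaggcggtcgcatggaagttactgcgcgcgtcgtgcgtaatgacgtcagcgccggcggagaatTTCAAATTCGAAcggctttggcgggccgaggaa
AURKB, GRCh38.p14, chr17:8210220-8210349, minus strand: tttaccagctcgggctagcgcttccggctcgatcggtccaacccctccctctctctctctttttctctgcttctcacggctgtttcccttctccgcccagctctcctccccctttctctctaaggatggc

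Counted from the start as base 1, the CHR word of PLK1 covers bases -29 to -24 and that of BUB1B bases -23 to -18. In BUB1 it covers bases 2 to 7 and in MAD2L1 bases 25 to 30. NDC80 holds a word on each strand: TTTGAA on the opposite strand at bases -3 to 3 and TTCGAA, which reads the same on both strands, at bases 4 to 9. CHR words were found in 5 of the 6 members, against 19.5% of the 27305 genes in the table and 23 of 41 other mitosis genes. With TTTGAA alone the members numbered 4 of 6, against 18.2% of all genes. Of the other mitosis genes, 51 names had been listed and 41 of these matched. When the word had to lie within 30 bases of the start, a limit chosen after the sequences were seen, the members still numbered 5 of 6, against 3.79% of all genes and 15 of 41 other mitosis genes.

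The E2F words searched were TTTCCCGC, TTTCGCGC, TTTGCCGC and TTTGGCGC on both strands, and 0 of the 6 members held one in the 300 bases. Among all genes with a RefSeq promoter 3.99% did, and of the other mitosis genes 3 of 41 did, so that 0 of 6 is close to the share over all genes. Only exact matches were counted, so that variants of these words would be missed. A further word of the same length, GGCGGGAA, was in 0 of 6 members, 3.79% of all genes and 5 of 41 other mitosis genes. It was also searched as an exact match, so that it is no looser a search. The CCAAT box was found in 4 of 6 members, namely PLK1, BUB1, MAD2L1 and AURKB, against 39.7% of all genes and 29 of 41 other mitosis genes. In MAD2L1 it covers bases -229 to -225 and in AURKB, from the start shown, bases -129 to -125. Both lie before the stretches shown above, where only PLK1 and BUB1 have a marked box. The word TTGGCGG was noticed in the sequences and searched afterwards, as an alternative to the E2F words. It follows the CHR word of BUB1B at bases -15 to -9 and of NDC80 at bases 15 to 21. In MAD2L1 it does so at bases 35 to 41, past the end of the stretch shown. Of all genes 4.18% hold the word TTGGCGG, and of the other mitosis genes 11 of 41 do. A match to so short a word is a description of the letters. The peak positions are on hg19 and the sequences on GRCh38.p14, so that summits were not placed on them. The word counts thus describe the RefSeq stretches, not the sequence under the peaks.

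All 10 genes had an Rb peak within 3 kb in the LNCaP list, and AURKA, TTK and KNTC1 had one in the VCaP list. For scale, 4.36% of the effective genome lay within 3 kb of an LNCaP summit and 1.95% within 3 kb of a VCaP summit. The same share over the start sites of all genes was not computed here, so that the count is not set against promoters in general. No gene had more than 1 peak inside the window. The farthest summit inside it was that of AURKA in LNCaP, 430 bp from the start site, and the nearest one outside it was an LNCaP summit 7253 bp from the start site of BUB1B. The limit of 3 kb therefore separated no close cases.

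**Figure D1:**
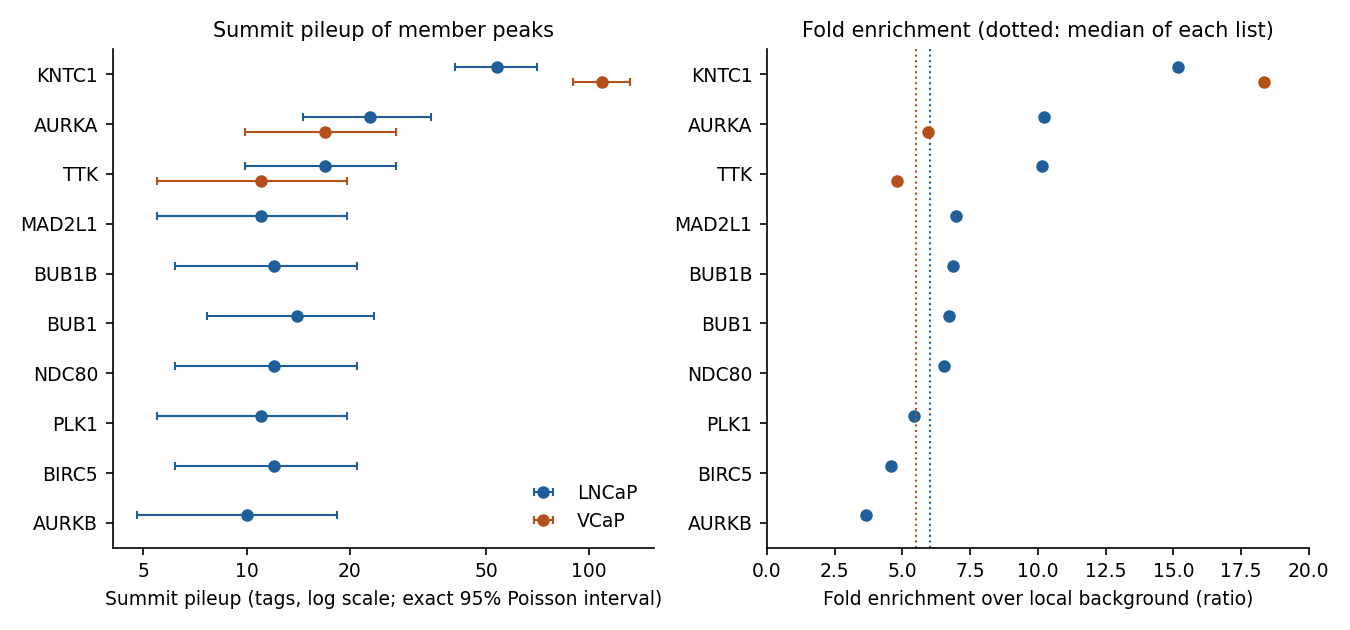
Left, tags over the summit (log scale) of each member's peak with exact 95% Poisson intervals. Right, fold enrichment, with the median of each list dotted. LNCaP is blue and VCaP brown, with 1 library each. KNTC1 stands apart in both libraries, and the 7 genes without a VCaP peak lie between 10 and 14 tags in LNCaP.

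Among the mitotic kinases, AURKA had the stronger peak and AURKB and PLK1 had weak ones. Fold enrichment is the authors' ratio of the summit pileup, the number of extended tags over the summit, to the local background of the same library. AURKA encodes Aurora A, the kinase that matures centrosomes and builds the spindle. Its peak had 17 tags at the summit in VCaP (exact 95% Poisson interval 9.90 to 27.2) and 23 in LNCaP (14.6 to 34.5), and a fold enrichment of 5.95 and 10.2. The LNCaP value was higher than in 92.8% of that list, and the VCaP value higher than in 63.6% of its list. The intervals, at this and every peak, cover counting error only.

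AURKB encodes Aurora B, the kinase of the chromosomal passenger complex that destabilises faulty attachments at the kinetochore. Its LNCaP peak, chr17:8113836-8114311, had 10 tags (4.80 to 18.4) and a fold enrichment of 3.64, the lowest of the 10 genes and higher than in 1.26% of the list. PLK1, a kinase needed for mitotic entry, centrosomes and cytokinesis, had an LNCaP peak at chr16:23689762-23690349 with 11 tags (5.49 to 19.7) and a fold of 5.44. Neither gene had a VCaP peak.

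Of the checkpoint genes, KNTC1 was among the most enriched peaks of both lists, and TTK also had a peak in each. BUB1, BUB1B and MAD2L1 had a peak in the LNCaP list only. KNTC1 encodes ROD, a subunit of the RZZ complex that brings dynein and checkpoint proteins to unattached kinetochores. Its peak covered chr12:123011537-123012028 in VCaP and chr12:123011261-123012047 in LNCaP, with 109 tags (89.5 to 131) and 54 tags (40.6 to 70.5). The fold enrichment was 18.3 in VCaP, rank 10 of 9393 peaks on chromosomes 1 to 22 and X, and 15.2 in LNCaP, rank 151 of 21955. The KNTC1 peak was thus the most enriched member peak in each library.

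TTK encodes MPS1, the kinase that starts the checkpoint signal at kinetochores. Its peak had 11 tags (5.49 to 19.7) and a fold of 4.79 in VCaP, and 17 tags (9.90 to 27.2) and a fold of 10.2 in LNCaP. In VCaP the fold was higher than in 23.5% of the list, and in LNCaP higher than in 92.7%. The gene thus stood in the lower part of one list and near the top of the other.

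BUB1, BUB1B and MAD2L1 act next in that signal, and each had a peak in the LNCaP list and none in the VCaP list. BUB1, a kinase that docks other checkpoint proteins at kinetochores, had 14 tags (7.65 to 23.5) and a fold of 6.73 at chr2:111435468-111435934. BUB1B encodes BUBR1, part of the complex that inhibits the anaphase-promoting complex, and had 12 tags (6.20 to 21.0) and a fold of 6.87 at chr15:40452959-40453629. MAD2L1 encodes MAD2, which binds and holds CDC20, and had 11 tags (5.49 to 19.7) and a fold of 6.96 at chr4:120987653-120988133. All 3 folds lay above the list median of 6.00 and below its upper quartile of 7.59.

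The remaining members, NDC80 and BIRC5, likewise had a peak in the LNCaP list and none in the VCaP list. NDC80, a subunit of the kinetochore complex that grips microtubules, had 12 tags (6.20 to 21.0) and a fold of 6.54 at chr18:2571010-2571595. BIRC5 encodes survivin, a partner of Aurora B in the passenger complex, and had 12 tags (6.20 to 21.0) and a fold of 4.59 at chr17:76210094-76210479. The fold of NDC80 was higher than in 60.8% of the list and that of BIRC5 higher than in 16.1%.

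The 7 LNCaP peaks without a VCaP counterpart could not be told apart by their summit tags. Their pileups were 10 to 14 tags, with Poisson intervals that all overlap. The background was computed back from pileup and fold, as tags in the 10 kb window around the summit, so that among peaks of like pileup a low fold gives a high background by construction and the values are a description only. It was 84 tags at AURKB and 76 at BIRC5, the genes of lowest fold. The values were 51 tags at BUB1, 50 at PLK1, 41 at NDC80, 37 at BUB1B and 30 at MAD2L1, the gene of highest fold among the 7. The window includes the tags of the peak itself, and the median over the LNCaP list was 51 tags.

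By fold enrichment 7 of the 10 members lay above the LNCaP median, but by pileup only 4 of 10 did, against a list median of 13 tags. The median over the members was 6.80 for fold and 12 tags for pileup. Only KNTC1, AURKA and TTK had a fold of at least 10 in LNCaP, a level reached by 8.02% of the list. In VCaP only KNTC1 did, where 3.32% of the list reached it. These counts describe the chosen genes in lists called without a control library.

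Most Rb peaks at these promoters were longer than the median of their list. Lengths in LNCaP ran from 386 bp at BIRC5 to 787 bp at KNTC1, with a median of 587 bp, and 9 of 10 exceeded the list median of 395 bp. Between these came 467 bp at BUB1, 476 bp at AURKB and 481 bp at MAD2L1, and a longer set from 586 bp at NDC80 to 671 bp at BUB1B. Among all 7875 LNCaP peaks of 10 to 17 tags the median length was 411 bp (quartiles 304 and 561). Of the 8 members in that range of pileup 7 were longer than that median and 4 longer than the upper quartile, with a median of 533.5 bp. In VCaP the lengths were 335 bp at TTK, 492 bp at KNTC1 and 502 bp at AURKA, all above the list median of 313 bp.

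**Figure D2:**
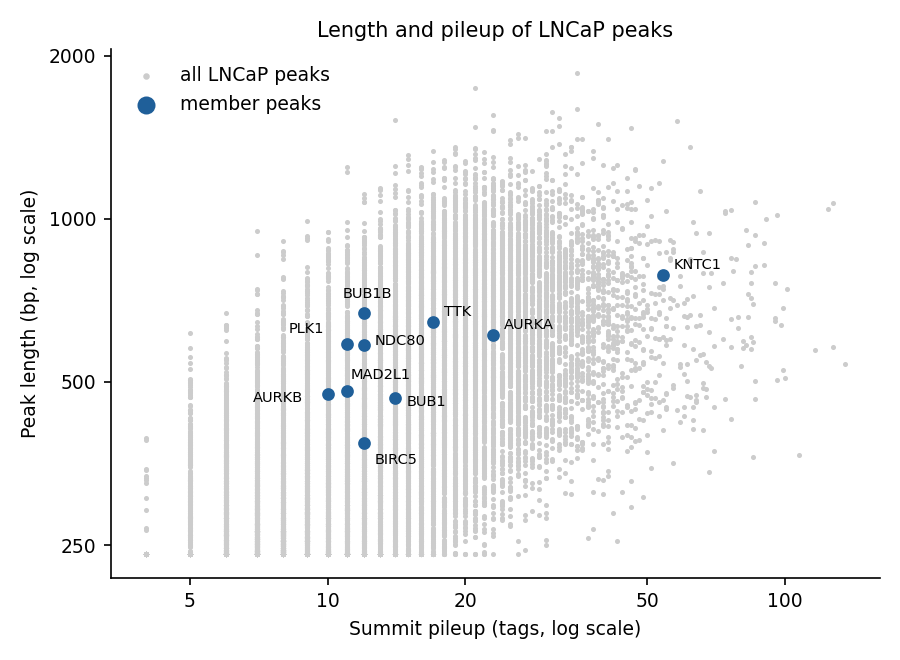
Peak length against summit pileup for all LNCaP peaks on chromosomes 1 to 22 and X (grey) and the 10 member peaks (blue), both axes on log scales. Of the 8 members of 10 to 17 tags, 7 are longer than the median of 411 bp for that pileup. BIRC5, at 386 bp, is the shortest.

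Summits lay at the start sites rather than anywhere in the 3 kb allowed. In LNCaP 8 of 10 summits were within 200 bp of the start site, with a median distance of 112.5 bp, and 9 of 10 peaks covered the start site itself. Along the direction of the gene 7 LNCaP summits were upstream and 3 downstream. The downstream ones were AURKB at 27 bp, BUB1B at 51 bp and MAD2L1 at 158 bp past the start. The closest were KNTC1, 1 bp from the start site in LNCaP and 4 bp in VCaP, and BIRC5, 11 bp from it in LNCaP.

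AURKA was the exception: its start site lay outside the peak in both lines. The LNCaP peak, chr20:54967374-54967984, began 23 bp upstream of the start site and the VCaP peak, chr20:54967452-54967953, began 101 bp upstream. Their summits were 430 and 301 bp upstream. At TTK the VCaP peak, chr6:80713979-80714313, ended 5 bp short of the start site, while the LNCaP peak, chr6:80713926-80714569, covered it. The TTK summits were 163 bp upstream in VCaP and 198 bp upstream in LNCaP.

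**Figure D3:**
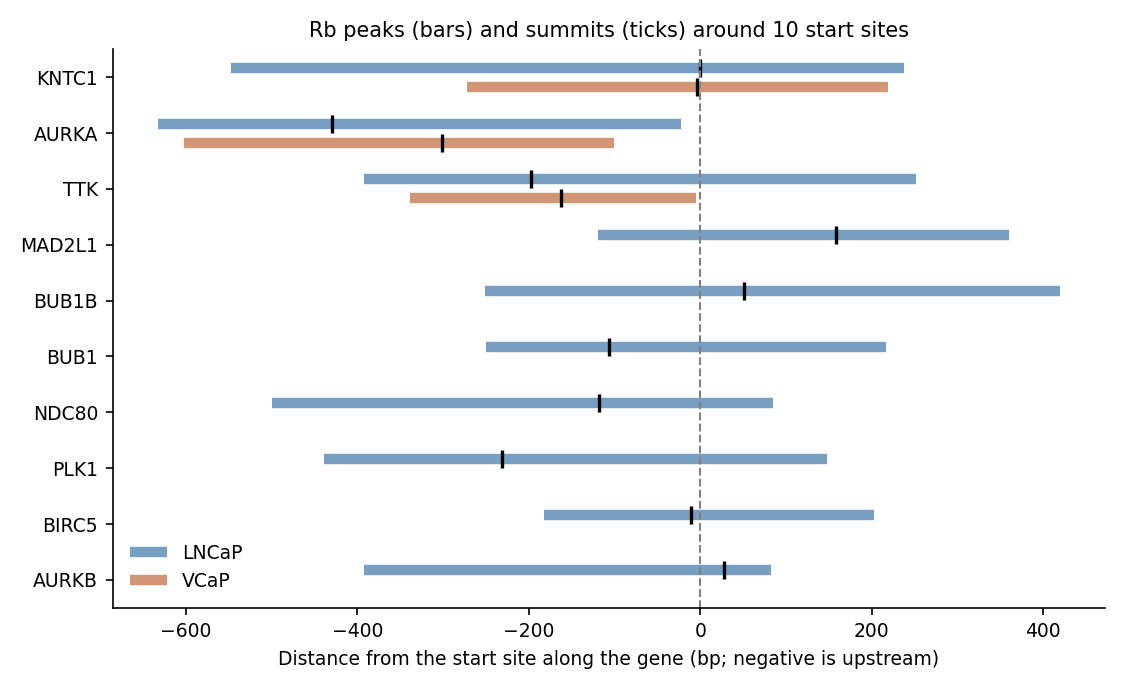
Peaks (bars) and summits (ticks) around the 10 start sites, as distance along the gene in bp, with upstream to the left. LNCaP is blue and VCaP brown. The bars cross the start site at 9 of 10 genes in LNCaP, and both AURKA bars lie upstream of it.

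A peak at a start site does not belong to 1 gene alone where a second gene starts nearby in the other direction. By the order of genes in RefSeq, 5 members have a neighbour on the opposite strand that overlaps them or lies within 1 kb on the 5′ side. These are AURKA with CSTF1, a subunit of the cleavage stimulation factor, KNTC1 with RSRC2, NDC80 with METTL4, MAD2L1 with MAD2L1-DT and BUB1 with the uncharacterised LOC105373554. The signal of the members and of these neighbours cannot be told apart at this resolution.

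The genes with a peak in both lines were the 3 most enriched members of LNCaP. AURKA, TTK and KNTC1 had LNCaP folds of 10.2 to 15.2 and pileups of 17 to 54 tags, and the 7 others had folds of 3.64 to 6.96 and pileups of 10 to 14. Of the 10 member peaks in LNCaP 3 were overlapped by a VCaP peak, close to the 30.2% found over the whole LNCaP list, and so the count itself says nothing particular about these genes. LNCaP peaks with a fold of at least 10 were overlapped in 77.6% of cases (exact 95% binomial interval 75.5 to 79.5), and 3 of 3 members were. Those with a fold under 7 were overlapped in 17.2% (16.6 to 17.8), and 0 of 7 members were. The limit of 7 was chosen with the members' values in view. From the other side, the 3 VCaP member peaks were all overlapped in LNCaP, where 71.2% of VCaP peaks were.

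**Figure D4:**
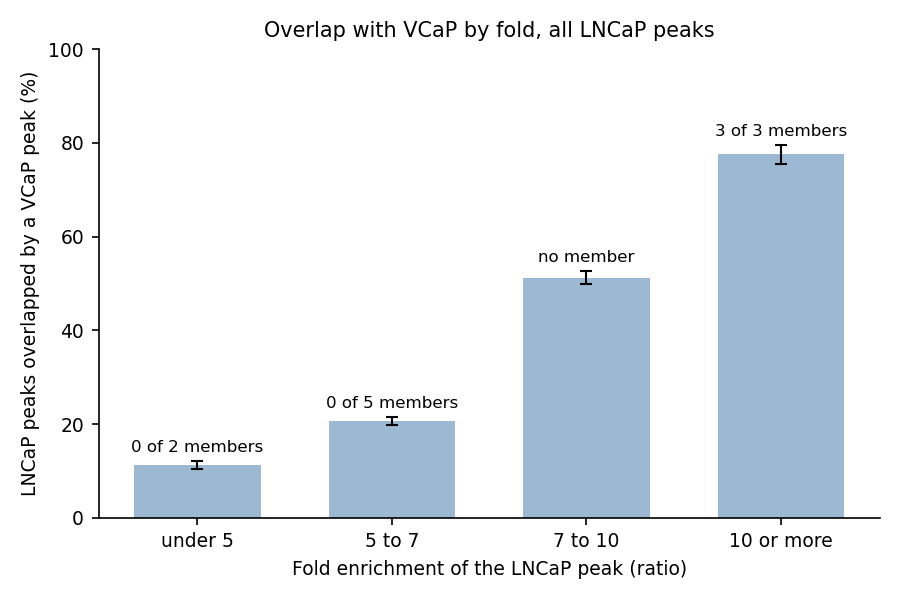
Share of LNCaP peaks overlapped by a VCaP peak (%), by fold enrichment of the LNCaP peak, with exact 95% binomial intervals and the number of members in each range. The share is 11.2% under a fold of 5 and 77.6% at 10 or more, and the shared members are all in the last range.

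At the shared sites KNTC1 had nearly equal coverage per tag sequenced in both libraries, while AURKA and TTK had less in VCaP. KNTC1 had 12.5 summit tags per 1000000 library tags in VCaP and 14.7 in LNCaP, a ratio of 0.853 (exact conditional interval 0.610 to 1.20). The ratio was 0.312 (0.157 to 0.611) at AURKA, with 1.96 and 6.26, and 0.273 (0.116 to 0.619) at TTK, with 1.27 and 4.63. The interval of KNTC1 covers 1 and just meets those of the other genes, which lie below 1. These intervals compare the 2 libraries, not the 2 lines. Over all 6688 overlapping pairs the median ratio was 0.298 (quartiles 0.229 and 0.399), so that AURKA and TTK stood near the middle of the pairs and KNTC1 above 98.2% of them.

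Fold enrichment gave the same order at these sites. VCaP over LNCaP, the ratio of folds was 1.21 at KNTC1, 0.583 at AURKA and 0.471 at TTK, against a median of 0.757 over all pairs (quartiles 0.619 and 0.939). The KNTC1 ratio was above 92.5% of pairs and the TTK ratio above 5.22%. Summits were 3 bp apart at KNTC1, 35 bp at TTK and 129 bp at AURKA, with a median of 73 bp over all pairs. Each fold is relative to its own library's background.

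The 7 genes without a VCaP peak had LNCaP pileups that, scaled for depth alone, would exceed most listed VCaP pileups. Scaled to the VCaP tag number, their LNCaP pileups correspond to 23.7 to 33.1 tags, above the VCaP list median of 13. Scaled also by the median ratio of 0.298 found at overlapping pairs, which holds only sites listed in both, they correspond to 7.06 to 9.88 tags. The smallest VCaP pileup listed was 6 tags and the 5th percentile 8 tags, so that these scaled values fall at the lower end of the list. The local background of VCaP at these promoters is not known. A peak list gives no values where no peak was called, so that weaker signal and no signal cannot be told apart.

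The number of peaks called around each gene also varied between the libraries. Within 5 Mb of PLK1 there were 87 LNCaP and 21 VCaP summits, a ratio of 4.14, and around AURKB 154 and 47, a ratio of 3.28. Around AURKA the ratio was lowest, with 57 and 37 summits or 1.54, and over the whole lists it was 2.34. The range was 1.95 to 4.14 around the 7 genes without a VCaP peak and 1.54 to 3.15 around the 3 with one, so that these ranges overlap. DNA copy number, which can move such counts in aneuploid lines, was not measured here, and its part in the result was not tested.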

How the data were processed

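Peaks of the 2 libraries were called separately by the authors, per the file headers. MACS 2.1.0.20140616 was run with no control, a q-value cutoff of 0.05 and at most 1 tag per position. The submitters' processing notes name MACS2, HOMER and the build hg19, and the aligner is not given in the sources used here. The deposited pileup is a coverage signal in tags and was left unscaled by the authors. Fold enrichment, as deposited, is a ratio to the local background of the same library. The deposited −log10 p and −log10 q values come from the same caller, and the authors' peak lengths are in bp. The summit files repeat the summits and q-values of the tables in all rows, 9423 in VCaP and 21994 in LNCaP.

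Each library was assigned to its line by the cell line label. Start sites were taken as given with the gene list, and gene direction from general knowledge, with the 6 genes in the RefSeq table checked against it. Ranks use chromosomes 1 to 22 and X. Overlap means at least 1 shared bp. Background was recovered from fold as pileup plus 1 over background plus 1, with the headers' fragment lengths, 225 bp for VCaP and 241 bp for LNCaP. Poisson, Clopper-Pearson and conditional binomial intervals at 95% were computed with scipy 1.17.1. Functions were tested on simulated peaks. With 1 library per line no test was run.

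All 10 members are named. The members and lists were chosen with earlier results of these data known. A list of 51 other mitosis gene names was to be counted for peaks as well. No annotation of hg19 was used here, so that this list was used for promoter words alone. Promoter sequences are from RefSeq, GRCh38.p14, and a gene with several promoters counted as holding a word if any did. Alternatives covered the distance window, stricter limits, other scores, other definitions of overlap and other words.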

Additional observations from a re-analysis of the deposited data

How the results depend on the processing

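Of 28 alternatives, 24 kept the count of genes within 1.5 times its value and 4 moved it. With a fold enrichment of at least 10 the genes with a peak numbered 1 in VCaP and 3 in LNCaP. Ranked by pileup in place of fold, 4 in place of 7 members lay above the LNCaP median. With the word TTGGCGG, chosen after seeing the data, 3 members held a match where 0 held an E2F word. Windows of 500 bp, 1 kb and 10 kb, and any base within 3 kb, left 3 genes in VCaP and 10 in LNCaP. With −log10 q of at least 5, or a fold of at least 5, the counts were 2 and 8, and with an LNCaP list cut to the 9393 peaks of highest fold 7 genes had an LNCaP peak. The number of shared peaks was 3 when each peak had to cover 50% of the other, when summits had to lie within 200 bp, and with any summit in the window. No paired analysis was possible because each line has 1 library, and for the same reason no replicate could be left out. At 10 to 17 tags a peak, counting error limits any order among single members.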

Other observations

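The next peak along the chromosome was the same site in both lists for 6 of the 10 genes, among them 4 of the 7 that had no VCaP peak of their own. Near BIRC5 the shared site lay 27009 bp from the start site in VCaP and 27041 bp in LNCaP. It covered chr17:76183024-76183483 in VCaP, with 32 tags and a fold enrichment of 9.50, and had 48 tags and a fold of 11.5 in LNCaP, above the 12 tags and fold of 4.59 at BIRC5. Near PLK1 the site chr16:23652404-23653013 (LNCaP interval) had 41 tags and a fold of 12.1 in LNCaP and 9 tags and a fold of 5.52 in VCaP.

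Near AURKB the fold, though not the pileup, was the higher in VCaP. The site chr17:8103621-8103870 (VCaP interval) had a fold of 7.64 with 12 tags in VCaP and of 5.61 with 13 tags in LNCaP. It lay 10169 bp from the AURKB start site, whose own LNCaP peak had a fold of 3.64. Near MAD2L1 the next shared site was 437732 bp away, with a fold of 4.87 in VCaP and 7.51 in LNCaP. The sites were chosen as the nearest outside 3 kb, and what lies there was not looked up on hg19.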
